A study of Homo sapiens with 100 samples.

Results

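MIR155HG is the non-coding host gene from which the microRNA miR-155 is cut, and its transcript was followed here as 1 gene of 78894 in a count table of TMD8 cells. It was chosen by name, as the only entry of the table with that symbol, and its level was read in all 100 libraries. TMD8 is an established human lymphoma line (diffuse large B cell, activated B cell subtype), and the libraries hold sequence from the 3' ends of poly(A) RNA. The study compared clones with an unaltered BTK, called wild-type, with clones carrying A428D in their own BTK gene. BTK is the kinase that carries the B cell receptor signal on to NF-kB.

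The clones were grown from single cells of the same line, 5 wild-type and 6 A428D. In the 24 h set each clone received DMSO (the solvent control), zelebrudomide, bexobrutideg, pomalidomide, venetoclax, or venetoclax together with 1 of the other 3 compounds, which made 88 libraries in 16 groups. A further 12 libraries were untreated, from the same 11 clones and the parental line. Bexobrutideg leads to the degradation of BTK, and zelebrudomide does the same while also degrading IKZF1 and IKZF3. Those are lymphoid transcription factors and the targets of pomalidomide, which acts through the ubiquitin ligase subunit cereblon. Venetoclax blocks BCL2, a protein that protects cells from apoptosis. The labels give no doses. A428D stands beside SF3B1 in the titles but beside BTK in the protocol and design, and 3' end counts do not read the base change. The compounds act on BTK protein, and BTK transcript in the 24 h groups had means between 66.5 and 80.8 CPM (counts scaled to the size of the library), so the transcript does not check the degraders.

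MIR155HG was first known as BIC, a site of viral integration in avian lymphomas. Its RNA has no long open reading frame. The nuclear enzyme DROSHA with its partner DGCR8 cuts the hairpin out of the host transcript, XPO5 exports it, and DICER1 trims it to the mature miRNA that AGO proteins carry to target mRNAs. In B cells the gene is switched on by B cell receptor, CD40 and Toll-like receptor signals through NF-kB and AP-1 factors, and high miR-155 is a known feature of the activated B cell type of this lymphoma. Among the targets described for miR-155 are SPI1, INPP5D (the phosphatase SHIP1), SOCS1, BACH1, CEBPB and JARID2.

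In GENCODE release 29 on GRCh38, MIR155HG (ENSG00000234883) lies on the plus strand at chr21:25561909-25575168 and has 4 exons. The last, of 1276 bases, starts at 25573893 and holds the 65-base MIR155 gene (25573980 to 25574044), which ends 1124 bases before the 3' end of the host. The hairpin and its arms are printed because the arms are the products for which the gene is known. In the hairpin the capitals mark the 2 mature arms, and in each mature sequence they mark the seed, bases 2 to 8, which pairs with targets.
MIR155 hairpin, chr21:25573980-25574044: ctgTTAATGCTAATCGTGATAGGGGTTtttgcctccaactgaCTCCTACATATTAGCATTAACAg
hsa-miR-155-5p: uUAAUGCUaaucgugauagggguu
hsa-miR-155-3p: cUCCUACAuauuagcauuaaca
The hairpin is read from GENCODE's GRCh38 and the mature arms from RefSeq (GRCh38.p14). None of the other entries among 2545 human mature miRNAs in that table has the seed UAAUGCU of the 5p arm, which is why listed targets were searched for this seed alone.

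Mature miR-155 has no poly(A) tail and was not measured in these libraries. All values below are of the host transcript, and nothing in them reports how much of it was processed. The table has a separate MIR155 entry, and it held multiples of 0.5 reads in 100 of 100 libraries, with 18 reads at most and 0 in 2 libraries. MIR155HG was a whole number in 50 libraries, and the sum of both entries was whole in 97 (tolerance 0.001), so that reads over the hairpin were shared between both. The MIR155 entry took 1.19% of the reads of both, and adding it to MIR155HG changed no call in 51 comparisons.

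The libraries held 1476876 to 12502216 counted reads with a median of 7144698 (at most 9389347 in the 24 h set, at least 10401314 in the untreated set), and mitochondrial transcripts took 6.24% to 11.1%. MIR155HG had 91 to 987.5 reads in a library. The B cell markers MS4A1, CD79A, CD79B, PAX5 and CD22 summed to 1560 to 3340 CPM. Summed markers reached at most 2.11 CPM for T cells, 1.45 for myeloid, 1.26 for erythroid, 33.1 for fibroblast and 8.67 for epithelial cells, and no marker in these lists was at 0 in all libraries. Their part in the results was not tested. One library stood apart: wild-type clone 3 given bexobrutideg with venetoclax was the shallowest, at 1476876 reads against 3149847 in the next of the 24 h set. It had 6.24% mitochondrial reads and a scaling factor of 1.41, the highest of all libraries. In it the receptor component CD79A was at 80.1 CPM against 615 to 649 in the other 4 clones of its group, IRF4 at 531 against 238 to 274, and BTK at 37.6 against 82.3 to 83.7. For MIR155HG in wild-type clones, the group mean and the comparisons of bexobrutideg with venetoclax that use this library are also given without it.

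Levels are in CPM on a TMM scale common to all libraries, as mean ± SD over clones, and they compare libraries, not genes. Changes are log2 fold changes ± SE from edgeR's quasi-likelihood test. A change is called at a Benjamini-Hochberg adjusted p under 0.05 over all genes tested, and the share of all genes called in the same comparison is given as the background. Every treatment comparison against DMSO shares its DMSO libraries, and every one on venetoclax shares the venetoclax libraries, so these comparisons are not independent of each other. In bulk RNA, fewer cells that express a gene and less RNA per cell cannot be told apart. Clones are the replicates. They are single-cell derivatives of 1 line, so the p-values measure the spread between clones of that line. The main test of treatments left out the pairing by clone, so libraries of the same clone counted there as independent. Fits with clone as a block, which keep the pairing, are given as an alternative. In 37 of 42 comparisons the block called over 1.5 times as many of all genes as the main fit. The shares of all genes given with the lists are without the block, so list counts with the block are not to be read against them.

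**Figure D1:**
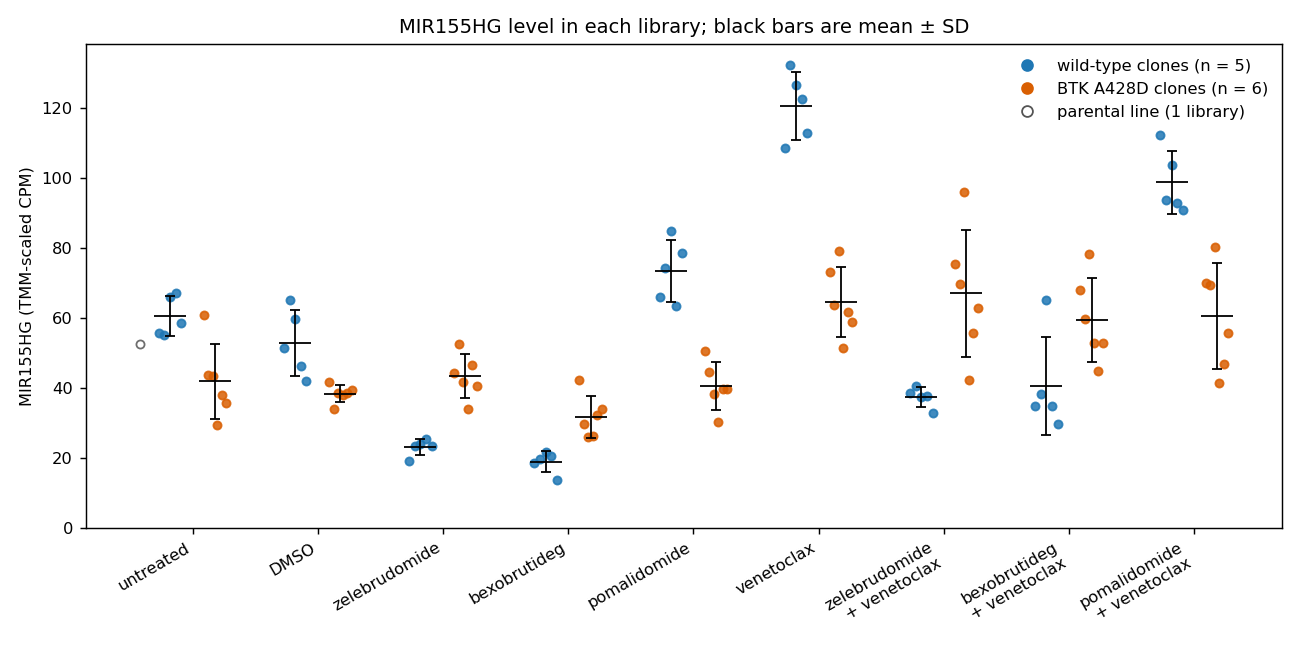
MIR155HG in every library, in TMM-scaled CPM on a linear axis from 0. Points are libraries (blue: wild-type, orange: A428D, open: parental) and black bars are the group mean ± SD. Wild-type groups span 18.8 to 120.5 CPM, whereas A428D group means of the 24 h set stay between 31.6 and 66.9 CPM.

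Both compounds that degrade BTK lowered MIR155HG in wild-type clones. Under DMSO the 5 wild-type clones had 51.3, 64.9, 59.5, 46.1 and 42.02 CPM (52.8 ± 9.44). With zelebrudomide the same clones, in the same order, had 19.2, 23.4, 23.9, 25.2 and 23.3 CPM (23.0 ± 2.26). All 5 treated libraries lay below all 5 DMSO libraries. The change was -1.19 ± 0.16 (adjusted p = 1.14e-07), a 2.28-fold fall, while 6.57% of 14962 genes were called in that comparison. By p-value MIR155HG ranked 38 of all genes tested.

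Bexobrutideg brought MIR155HG to the lowest level of the 16 groups. The wild-type clones had 18.5, 19.7, 21.6, 20.5 and 13.7 CPM (18.8 ± 3.04), again with no overlap with DMSO. The fall was 2.78-fold, -1.48 ± 0.17 (adjusted p = 6.79e-10) and ranked 4 by p. The background was 2.45% of genes called. Within clones the ratio to DMSO ran from 2.25-fold to 3.29-fold lower for bexobrutideg and from 1.80-fold to 2.78-fold lower for zelebrudomide.

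Zelebrudomide and bexobrutideg were not told apart by MIR155HG in wild-type clones. Each clone had a somewhat higher level with zelebrudomide than with bexobrutideg, by 1.03-fold to 1.70-fold, but the difference was not called (0.29 ± 0.17, 95% interval -0.06 to 0.63, adjusted p = 0.748, with 1.23% of genes called).

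Pomalidomide moved the gene the other way. The wild-type clones had 65.9, 74.2, 84.6, 63.4 and 78.4 CPM (73.3 ± 8.77), each above its own DMSO culture, by 1.14-fold to 1.87-fold, although the groups overlapped. The change was 0.47 ± 0.16 (adjusted p = 0.0372, with 9.99% of genes called). It is close to the threshold: it was not called on library totals without TMM (0.44, adjusted p = 0.102) or without wild-type clone 1, 3, 4 or 5 (range over all left-out clones 0.38 to 0.57, adjusted p 0.0179 to 0.227). With clone as a block it was 0.48 ± 0.11 and was called.
Against pomalidomide, MIR155HG was lower with zelebrudomide by -1.66 ± 0.17 (adjusted p = 1.73e-12, 7.43% of genes called) and with bexobrutideg by -1.95 ± 0.17 (adjusted p = 7.39e-16, 16.1% called). Zelebrudomide, which shares the IKZF1 and IKZF3 activity of pomalidomide, lay on the side of bexobrutideg for this transcript. The libraries do not measure the degraded proteins and the labels give no doses, and the part of each activity was not tested.

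Venetoclax gave the highest level in the series. The wild-type clones rose to 108, 132, 126, 123 and 113 CPM (120.5 ± 9.79), all above every DMSO library. The rise was 2.23-fold, 1.16 ± 0.16 (adjusted p = 2.12e-08), in a comparison in which 32.8% of genes were called, and MIR155HG ranked 66 by p. The ratio within clones ran from 2.04 to 2.68. In this comparison a call by itself is common, and the rank says more than the call.

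When a BTK degrader was present with venetoclax, the level in wild-type clones was below the clone's own DMSO level in 5 of 5 clones for zelebrudomide and in 4 of 5 for bexobrutideg. With zelebrudomide and venetoclax together the clones had 38.6, 40.5, 37.3, 37.7 and 32.7 CPM (37.4 ± 2.90), 2.81-fold to 3.45-fold below venetoclax alone. The change was -1.66 ± 0.16 (adjusted p = 7.29e-13, 21.2% of genes called). With bexobrutideg and venetoclax the clones had 34.7, 38.1, 65.1, 34.8 and 29.6 CPM (40.5 ± 14.1), and the change against venetoclax was -1.58 ± 0.16 (adjusted p = 6.25e-12, 15.5% called). The value of 65.1 CPM belongs to the shallow library of clone 3, where 135 reads gave 91.4 CPM of the library total (95% Clopper-Pearson interval 76.6 to 108, counting error only). Without that library the other 4 clones had 34.3 ± 3.49 CPM and the change was -1.825 ± 0.16 (adjusted p = 1.59e-14). Without all libraries of clone 3 it was -1.79, still called.
The difference between both degraders on venetoclax was -0.08 ± 0.17 (95% interval -0.42 to 0.27, adjusted p = 0.902, 1.21% called) and changed sign without that library, to 0.14.

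Read from the degrader side, venetoclax raised MIR155HG in each pairing. Added to zelebrudomide it gave 0.69 ± 0.17 in wild-type clones (adjusted p = 0.0035, 12.5% of genes called), and added to bexobrutideg 1.05 ± 0.17 (adjusted p = 6.02e-06, 18.8% called), or 0.81 ± 0.17 without the shallow library (adjusted p = 0.000379). Added to pomalidomide it gave 0.41 ± 0.15 (adjusted p = 0.046, 20.1% called), a call lost under DESeq2 (adjusted p = 0.0504), under DESeq2 size factors (0.0522), on library totals (0.0555) and without wild-type clone 1, 2 or 4. The level with pomalidomide and venetoclax was 112, 93.6, 104, 92.8 and 90.8 CPM (98.6 ± 9.05). It lay under venetoclax alone in 4 of 5 clones, but pomalidomide added to venetoclax was not called (-0.27 ± 0.15, adjusted p = 0.33, 8.41% called). In a fit of those groups alone that difference was called (-0.27, adjusted p = 0.0149).
On venetoclax, both degraders again lay below pomalidomide: zelebrudomide by -1.38 ± 0.16 (adjusted p = 8e-10, 12.5% called) and bexobrutideg by -1.31 ± 0.16 (adjusted p = 1.21e-09, 18.9% called), or by -1.545 ± 0.16 without the shallow library (adjusted p = 3.77e-12).

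**Figure D2:**
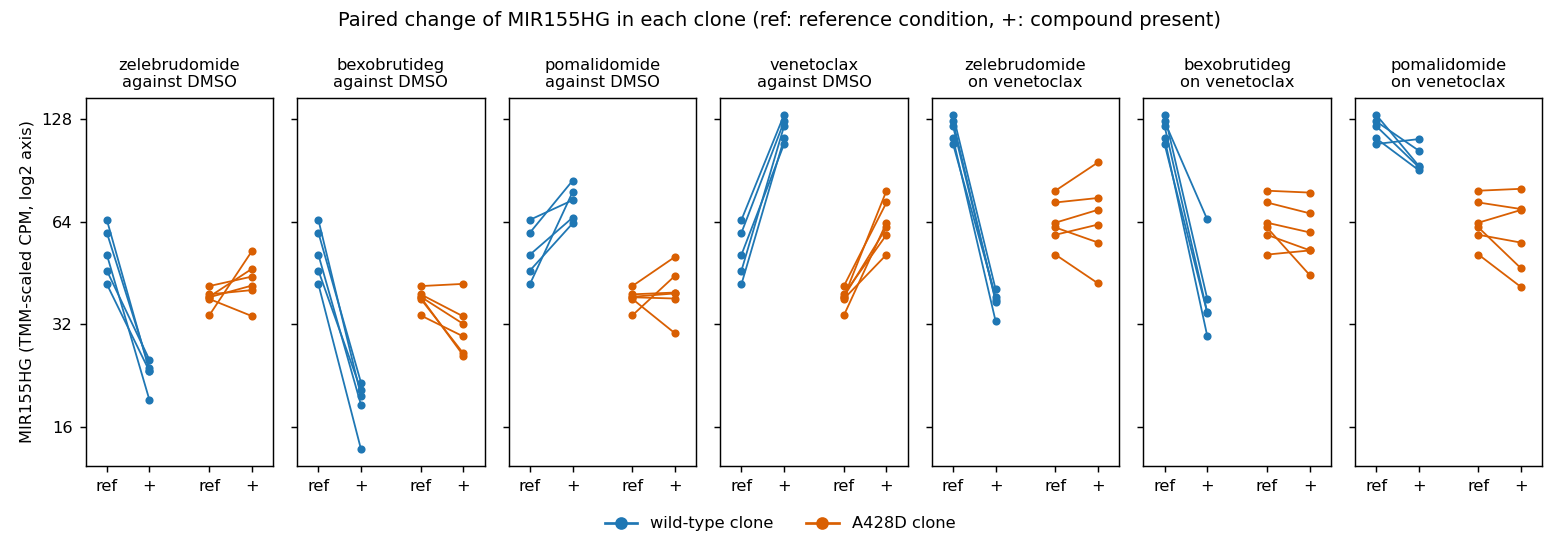
Each line joins the MIR155HG level of 1 clone in the reference condition (ref: DMSO, or venetoclax in the 3 right panels) and with the compound added (+), in TMM-scaled CPM on a log2 axis. All 5 wild-type lines fall with zelebrudomide and with bexobrutideg, with or without venetoclax, and 6 of 6 A428D lines rise with venetoclax.

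In A428D clones neither degrader changed MIR155HG by a called amount. Under DMSO the 6 clones had 41.5, 34.0, 38.5, 38.0, 38.6 and 39.2 CPM (38.3 ± 2.43), the tightest group of the set with a coefficient of variation of 6.35%. With zelebrudomide they had 44.2, 52.5, 41.6, 33.9, 46.6 and 40.4 CPM (43.2 ± 6.28), above DMSO in 5 of 6 clones. The change was 0.17 ± 0.15 (95% interval -0.12 to 0.46, adjusted p = 0.861, 2.06% of genes called), and the lower bound of that interval lies above the -1.19 of wild-type clones.
With bexobrutideg the A428D clones had 42.1, 29.5, 25.9, 26.3, 32.1 and 33.8 CPM (31.6 ± 6.00), below DMSO in 5 of 6 clones. The change was -0.27 ± 0.15 (95% interval -0.57 to 0.02, adjusted p = 1). Bexobrutideg called 0% of genes in A428D clones by edgeR, 288 of 14962 genes had an unadjusted p under 0.05, and DESeq2 called 0. At this precision a fall of up to 0.57 on the log2 scale lies within the interval.
Pomalidomide left the A428D clones at 40.4 ± 6.80 CPM (30.1 to 50.5), a change of 0.07 ± 0.15 (adjusted p = 0.887, 8.68% called).

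Set against each other in A428D clones, the compounds gave small differences. Zelebrudomide lay above bexobrutideg in 6 of 6 clones, by 0.45 ± 0.15 (adjusted p = 0.151, 1.24% called). With clone as a block this was 0.45 ± 0.11 and was called (adjusted p = 0.00386). Bexobrutideg lay below pomalidomide in 6 of 6 clones by -0.35 ± 0.15 (adjusted p = 0.166, 7.85% called), which was also called with the block (adjusted p = 0.0211). Zelebrudomide against pomalidomide gave 0.10 ± 0.15 (95% interval -0.19 to 0.39, adjusted p = 1, 0.842% called).

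Venetoclax raised the gene in A428D clones too. They had 73.0, 63.7, 79.1, 51.3, 61.7 and 58.7 CPM (64.6 ± 10.0), each above all DMSO libraries of the genotype. The rise was 1.66-fold, 0.73 ± 0.14 (adjusted p = 0.000183, 16.8% of genes called). Added to zelebrudomide, bexobrutideg and pomalidomide, venetoclax gave 0.61 ± 0.14 (adjusted p = 0.00106, 20.7% called), 0.88 ± 0.15 (8.29e-06, 19.7%) and 0.57 ± 0.14 (0.00311, 17.1%), with 6 of 6 clones higher in each.
On venetoclax the other compounds had no called effect in A428D clones. Zelebrudomide added to venetoclax gave 66.9 ± 18.2 CPM (42.2 to 95.8), a change of 0.05 ± 0.14 (adjusted p = 0.998, 1.07% called). Bexobrutideg gave 59.3 ± 12.02 CPM and -0.12 ± 0.14 (adjusted p = 1), where edgeR called 0% of genes (232 at an unadjusted p under 0.05) and DESeq2 0. Pomalidomide gave 60.5 ± 15.1 CPM and -0.09 ± 0.14 (adjusted p = 0.849, 7.91% called). The differences between compounds on venetoclax were 0.18 for zelebrudomide against bexobrutideg (adjusted p = 0.987, 0.622% called), 0.14 for zelebrudomide against pomalidomide (adjusted p = 1, 0.889%) and -0.04 for bexobrutideg against pomalidomide (adjusted p = 0.958, 6.74%).

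The response of MIR155HG to the degraders differed between the genotypes. The change in A428D clones minus that in wild-type clones was 1.36 ± 0.22 for zelebrudomide (adjusted p = 4.38e-05, 1.04% of genes called, rank 8) and 1.20 ± 0.22 for bexobrutideg (adjusted p = 0.000681, 0.615% called, rank 13). On venetoclax the difference was 1.71 ± 0.22 for zelebrudomide (adjusted p = 2.2e-08, 6.22% called, rank 7) and 1.46 ± 0.22 for bexobrutideg (adjusted p = 2.78e-06, 3.36% called, rank 11), the latter 1.70 ± 0.21 without the shallow library (adjusted p = 9.4e-09). Leaving out any 1 clone kept all 4 differences called, and they were also called with clone as a block.
For the compounds that do not act on BTK no difference in response was called. It was -0.40 ± 0.21 for pomalidomide (95% interval -0.82 to 0.03, adjusted p = 1), -0.43 ± 0.21 for venetoclax (-0.85 to -0.01, adjusted p = 1) and 0.19 ± 0.21 for pomalidomide on venetoclax (-0.23 to 0.60, adjusted p = 1). In each of these comparisons edgeR called 0% of genes and DESeq2 0, and 253, 709 and 285 genes had an unadjusted p under 0.05.

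**Figure D3:**
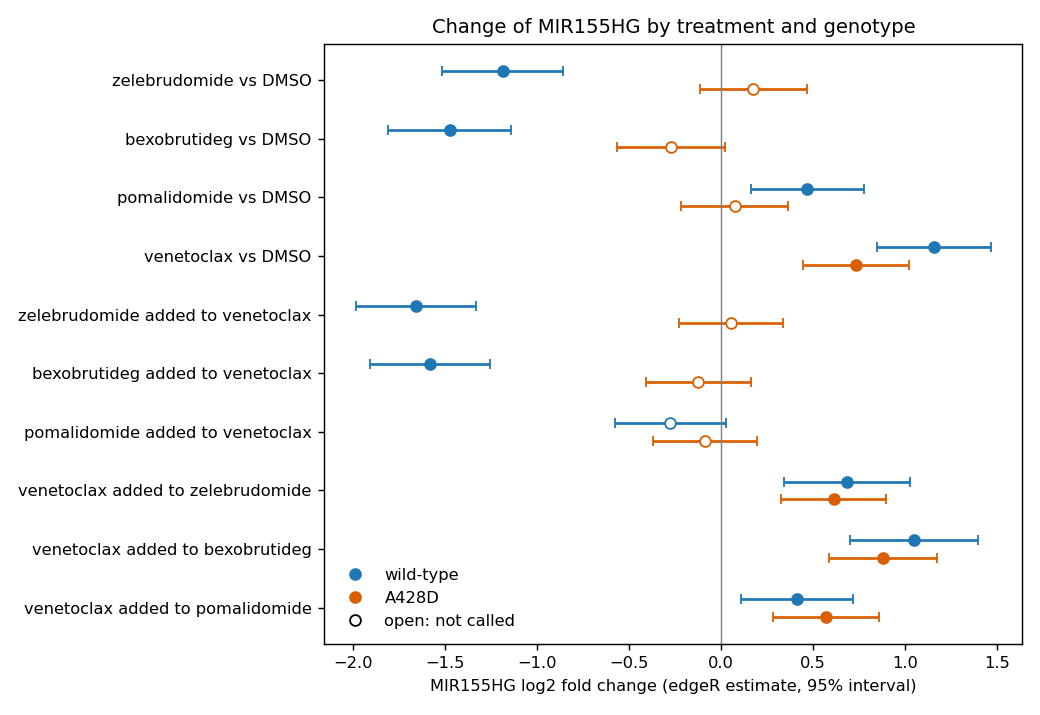
log2 fold change of MIR155HG with its 95% interval (edgeR) for 10 comparisons in wild-type (blue) and A428D clones (orange). Filled points are called and open points are not. The genotypes lie apart for the degraders (-1.19 against 0.17 and -1.48 against -0.27) and on the same side of 0 for venetoclax (1.16 and 0.73).

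Compared directly, A428D clones had less MIR155HG on average than wild-type clones where BTK was not targeted and more where it was, though not every difference was called. The difference under DMSO was -0.49 ± 0.11 (adjusted p = 0.0127, 7.13% of genes called), a 1.40-fold lower level, with all 6 A428D clones below all 5 wild-type clones. It was -0.87 ± 0.11 with pomalidomide (adjusted p = 0.000715, 3.46% called) and -0.90 ± 0.10 with venetoclax (adjusted p = 7.99e-05, 5.37% called, rank 7). With both together it was -0.72 ± 0.15 (adjusted p = 0.0191, 2.52% called), a call lost without wild-type clone 3 or 4 or A428D clone 6 (adjusted p 0.0501, 0.051 and 0.0519).
With a degrader the order turned. A428D clones were higher by 0.87 ± 0.11 with zelebrudomide (adjusted p = 0.00029, 13% called), by 0.72 ± 0.14 with bexobrutideg (adjusted p = 0.00533, 12.3% called) and by 0.80 ± 0.17 with zelebrudomide and venetoclax (adjusted p = 0.00711, 22.9% called). With bexobrutideg and venetoclax the difference was 0.52 ± 0.22 and not called (adjusted p = 0.272, 1.93% called). Without the shallow library of wild-type clone 3 it was 0.78 and called (adjusted p = 0.00444).

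On the TMM scale untreated cultures gave levels near those under DMSO, whereas on library totals they lay higher. Untreated wild-type clones had 55.7, 54.9, 65.9, 67.0 and 58.6 CPM (60.4 ± 5.69), the A428D clones 60.9, 43.6, 43.4, 29.2, 38.0 and 35.6 CPM (41.8 ± 10.8) and the parental line 52.3 CPM. The parental value is 1 library of 683 reads, or 62.8 CPM of its total (95% Clopper-Pearson interval 58.2 to 67.7). A428D clone 1 overlapped the wild-type range and the other 5 did not. The difference of -0.53 ± 0.16 was not called (adjusted p = 0.0829, 5.9% of genes called). Without A428D clone 1 it was -0.67 (adjusted p = 0.00134), and DESeq2 called it with all clones (-0.53, adjusted p = 0.00412).
Untreated against DMSO gave 0.20 ± 0.14 in wild-type (adjusted p = 0.197) and 0.14 ± 0.13 in A428D clones (adjusted p = 0.348), with a difference of -0.06 ± 0.19 between genotypes (adjusted p = 0.906, 1.81% called). Of all genes 72% and 71% were called between those sets. These sets were sequenced to different depths, and an effect of the set cannot be told apart from one of DMSO. On library totals the changes were 0.40 (adjusted p = 0.0151) and 0.43 (adjusted p = 0.00643), so that no level difference between the sets is read here.

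Over the 24 h set the group means spanned 6.41-fold, from wild-type bexobrutideg to wild-type venetoclax. Of 15 neighbouring pairs in that order, 13 overlapped in range. The exceptions were the step from wild-type zelebrudomide (up to 25.2 CPM) to A428D bexobrutideg (from 25.9 CPM) and the step from wild-type pomalidomide (up to 84.6 CPM) to wild-type pomalidomide with venetoclax (from 90.8 CPM). The 8 A428D means fell between 31.6 and 66.9 CPM, inside the wild-type span. Clones kept part of their own level: A428D clone 1 lay above its group mean in 8 of 8 conditions and A428D clone 4 in 0 of 8, on average 0.32 below on the log2 scale. Wild-type clone 3 lay above in 7 of 8 and wild-type clone 5 in 2 of 8.

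Of 17 listed regulators of the host gene, 16 could be tested in the 24 h set (FOSL1 could not). They are the NF-kB subunits, the AP-1 factors with BATF, and MYB, STAT3, IRF4 and ETS2. With zelebrudomide in wild-type clones 5 were called lower and 0 higher, against 3.52% and 3.05% of all genes. These were IRF4 (-1.19 ± 0.15, adjusted p = 1.11e-08), RELB (-1.11 ± 0.12, adjusted p = 1.56e-10), NFKB2 (-0.83 ± 0.15), BATF (-0.70 ± 0.14) and NFKB1 (-0.59 ± 0.14). RELB and NFKB2 form the non-canonical NF-kB dimer, and NFKB2 and RELB are themselves NF-kB target genes. The list's median was -0.16 and that of all genes -0.01. In this list and those below the members with the largest changes are named, and smaller ones were chosen after their values were seen.

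With bexobrutideg 5 regulators were called lower and 1 higher, against 1.71% and 0.735% of all genes. RELB went from 53.8 to 65.2 CPM under DMSO to 19.8 to 29.9 CPM (-1.19 ± 0.12, adjusted p = 1.7e-11) and IRF4, a factor of activated B and plasma cells, from 413 to 481 CPM to 206 to 234 CPM (-1.02 ± 0.15, adjusted p = 2.45e-06). Neither gene overlapped between the groups, but how many of all genes separate in this way was not counted. MYB changed by -0.97 ± 0.21 and NFKB2 by -0.93 ± 0.15, and BATF, an AP-1 partner of IRF4, by -0.91 ± 0.15. JUN was the member called higher (0.47 ± 0.12, adjusted p = 0.015).

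Pomalidomide raised 3 regulators and lowered 0 in wild-type clones, against 5.36% and 4.63% of all genes: BATF (0.66 ± 0.14), JUN (0.58 ± 0.12) and JUNB (0.56 ± 0.11). Venetoclax raised 7 and lowered 1 in wild-type clones (15.4% and 17.4% of all genes) and raised 4 and lowered 1 in A428D clones (8.05% and 8.79%). BATF rose in both, from 95.7 to 132 CPM under DMSO to 215 to 264 CPM in wild-type clones (1.06 ± 0.14, adjusted p = 2.51e-08) and by 0.64 ± 0.13 in A428D clones. JUND was the member that fell, by 0.87 ± 0.13 and 0.66 ± 0.12 on the log2 scale. In wild-type clones NFKB1 rose by 0.57 ± 0.14 and NFKB2 by 0.52 ± 0.14, and in A428D clones IRF4 rose by 0.48 ± 0.14 and NFKB1 by 0.36 ± 0.13. BATF was thus called in each of these 5 comparisons in the direction in which MIR155HG was called, whereas RELB was called with the degraders only and had 0.14 with venetoclax and 0.00 with pomalidomide in wild-type clones.

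The responses of 4 regulators to zelebrudomide and of 6 to bexobrutideg differed between genotypes. For zelebrudomide all 4 were higher in A428D clones (0.849% of all genes higher and 0.187% lower): IRF4 (1.26 ± 0.20), RELB (1.11 ± 0.16), BATF (0.98 ± 0.19) and NFKB2 (0.84 ± 0.20). For bexobrutideg 5 were higher and 1 lower (0.495% and 0.12% of all genes), led by MYB (1.32 ± 0.28), IRF4 (1.09 ± 0.20), RELB (1.04 ± 0.16) and NFKB2 (0.95 ± 0.20), with JUN lower.

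**Figure D4:**
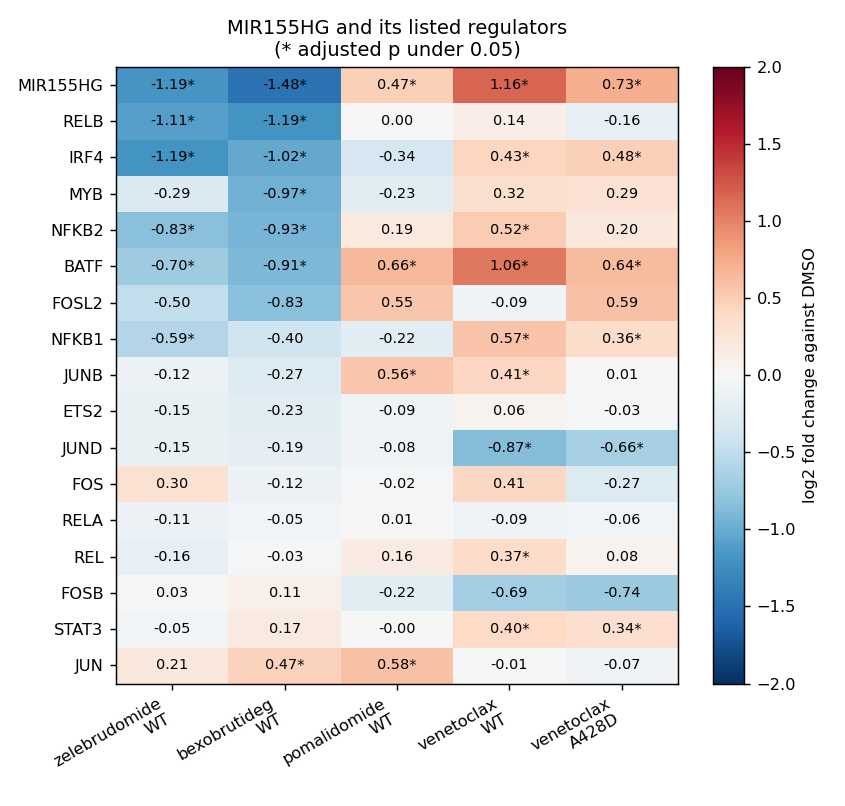
log2 fold change against DMSO of MIR155HG (top) and the 16 tested regulators in 5 comparisons, ordered by the wild-type bexobrutideg column, and an asterisk marks an adjusted p under 0.05. BATF carries an asterisk in all 5 columns, and RELB, IRF4 and NFKB2 carry one in both degrader columns.

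The promoter is printed because motifs of the AP-1, STAT and NF-kB factors among the regulators were searched for in it. It is the RefSeq window (GRCh38.p14) on the plus strand around the annotated start, 300 bases long, with an AP-1 motif in capitals. The GENCODE model begins earlier, at 25561909, so the window covers its exon 1.
MIR155HG promoter, chr21:25561895-25562194: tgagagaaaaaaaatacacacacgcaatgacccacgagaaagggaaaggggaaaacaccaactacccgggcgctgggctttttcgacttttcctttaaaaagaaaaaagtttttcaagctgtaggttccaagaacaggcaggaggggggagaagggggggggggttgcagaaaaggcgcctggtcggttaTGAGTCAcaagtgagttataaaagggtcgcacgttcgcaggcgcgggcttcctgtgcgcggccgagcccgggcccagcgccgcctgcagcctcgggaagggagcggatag
The AP-1 motif TGANTCA, searched on both strands, was found 1 time, as TGAGTCA with its first base 60 before the RefSeq start. Of 35116 promoter windows 7.71% hold it. The STAT motif TTCNNNGAA was found 1 time, as TTCCAAGAA, 125 before the RefSeq start (7.66% of windows). In the GENCODE model both motifs lie after its start, between exon 1 (to 25562014) and exon 2 (from 25562125). The NF-kB consensus was not found in this window (5.91% of windows hold it), which says nothing of elements elsewhere. Of the 10 genes whose level was most like MIR155HG, 8 had a window in the table, and 0 of them held the AP-1 motif.

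Genes that NF-kB switches on in activated B cells were the next list. Of 27 such genes 13 were called lower and 2 higher with zelebrudomide in wild-type clones (median -0.55, all genes -0.01), against 3.52% lower and 3.05% higher over all genes. With bexobrutideg 14 were lower and 0 higher (median -0.70), against 1.71% and 0.735%. Named by the size of their change, CCL22 (-1.93 ± 0.46), IL10 (-1.73 ± 0.39), NFKBID (-1.15 ± 0.16) and TNF (-1.09 ± 0.31) fell with zelebrudomide. With bexobrutideg CCL4 (-2.95 ± 0.70), CCL22 (-2.08 ± 0.47), IL10 (-1.97 ± 0.40) and NFKBID (-1.65 ± 0.17) fell. CCL22 and CCL4 are chemokines, CCL4 shares reads with a near-identical copy, and NFKBID is an atypical NF-kB inhibitor. The 2 members that rose with zelebrudomide were CCND2 (0.66 ± 0.13), a cyclin, and CFLAR (0.27 ± 0.09), an inhibitor of caspase activation.

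With pomalidomide 14 of the 27 were called higher and 1 lower (median 0.43), against 5.36% and 4.63% of all genes, led by CCL4 (2.56 ± 0.39), IL6 (1.61 ± 0.34), IL10 (1.54 ± 0.29) and CCL3 (1.53 ± 0.40). With venetoclax 12 were higher and 0 lower in wild-type clones (median 0.38), against 15.4% and 17.4% of all genes, led by IL6 (1.45 ± 0.35), CCL22 (1.22 ± 0.35), IL10 (1.06 ± 0.29) and EBI3 (0.82 ± 0.16). In A428D clones venetoclax called 2 higher (CCND2 and NFKBIA) and 1 lower (GADD45B), and 9 higher and 3 lower with clone as a block. The share of all genes was 8.05% higher and 8.79% lower without the block, and the block called more of all genes. The responses to zelebrudomide and bexobrutideg differed between genotypes for 9 and 6 of them, all higher in A428D clones. Of all genes 0.849% and 0.495% were called higher. With the block the responses differed for 15 and for 14 (13 higher, 1 lower), and there too more of all genes were called. Between the genotypes under DMSO, 2 of 26 tested were higher in A428D clones, IL6 (1.60 ± 0.31) and CD83 (1.03 ± 0.11), and 5 were lower, led by CCL22 (-2.09 ± 0.29), where 7.13% of all genes were called either way.

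Of 35 listed targets of miR-155, 32 were tested. With zelebrudomide 0 were called higher and 2 lower, against 3.05% and 3.52% of all genes: CEBPB (-1.24 ± 0.16, adjusted p = 3.62e-08) and PELI1 (-0.76 ± 0.13). The same 2 were the members called with bexobrutideg (-0.95 ± 0.16 and -0.53 ± 0.13), again 0 higher, against 0.735% higher and 1.71% lower over all genes. With clone as a block 1 was higher and 4 lower with zelebrudomide, and 2 higher and 5 lower with bexobrutideg. More of all genes were called with the block as well, so the shares above are not the background of these counts. CEBPB, a transcription factor of the C/EBP family, went from 60.3 to 77.8 CPM under DMSO to 23.9 to 35.4 CPM with zelebrudomide and 31.2 to 39.6 CPM with bexobrutideg. It fell in these comparisons, in which the host transcript fell, and also with venetoclax in A428D clones (-0.42 ± 0.15, adjusted p = 0.0402), where the host transcript rose. Its response differed between genotypes, by 1.08 ± 0.22 for zelebrudomide and 1.03 ± 0.22 for bexobrutideg.

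With pomalidomide 0 targets rose and 4 fell, against 5.36% higher and 4.63% lower over all genes: IKBKE (-0.84 ± 0.27), ETS1 (-0.71 ± 0.10), PELI1 (-0.71 ± 0.13) and JARID2 (-0.55 ± 0.16). With clone as a block 1 rose and 13 fell. More of all genes were called with the block too, so the shares above do not apply to it. Venetoclax in wild-type clones called 9 of 32 lower and 3 higher (median -0.22, all genes -0.06), against 17.4% lower and 15.4% higher over all genes. With the block 16 targets were lower and 5 higher, and no share of all genes is given for that fit. TP53INP1, a stress protein, changed most (-1.79 ± 0.30, adjusted p = 3.01e-06), and among the others described MSH6 (1.14 ± 0.16), a DNA repair gene, rose and HBP1 (-0.93 ± 0.17), a repressor of cell cycle genes, fell. In A428D clones 6 fell and 2 rose with venetoclax, against 8.79% and 8.05% of all genes, led by TP53INP1 (-1.13 ± 0.28), HBP1 (-0.79 ± 0.15) and MSH6 (0.73 ± 0.15). With the block 13 fell and 4 rose there, and more of all genes were called too. MSH6 rose in both comparisons, in which MIR155HG rose too.

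Sites for the 5p seed were looked up in the annotated 3' UTRs. A 7mer site is AGCATTA, the complement of the seed, and an 8mer site is AGCATTAA. Of 35 listed targets 21 hold an 8mer and 25 hold either, against 4.31% and 11.3% of 19106 genes with a 3' UTR, in GENCODE release 29. These counts describe the sequences of the listed genes and are not a result of the libraries. Whether the targets were first described through a seed match was not examined. The 8mer sites of 5 called members are shown, as examples in each direction, with the match to the seed in capitals.
CEBPB, chr20:50192611-50192634, plus strand: tcttttccgtttcaAGCATTAAga
HBP1, chr7:107201594-107201617, plus strand: gctttctccattagAGCATTAAgc
JARID2, chr6:15520383-15520406, plus strand: actaattttgttttAGCATTAAac
JARID2, chr6:15521185-15521208, plus strand: caccttcacaagtcAGCATTAAtc
ETS1, chr11:128459360-128459383, minus strand: actctgggttttacAGCATTAAcc
ETS1, chr11:128461432-128461455, minus strand: atgttgagctaagaAGCATTAAgt
MSH6, chr2:47807617-47807640, plus strand: ctacatgagattaaAGCATTAAaa
CEBPB holds an 8mer and fell with both degraders, as MIR155HG did, and MSH6 holds one and rose with venetoclax, as MIR155HG did, while HBP1, JARID2 and ETS1 hold 8mers and fell with venetoclax. TP53INP1, INPP5D, FOXO3, ZNF652 and BACH1, whose sites are not shown, also hold an 8mer and fell with venetoclax in wild-type clones. IKBKE, which fell with pomalidomide, holds the 7mer at 2 places and no 8mer. PELI1 has neither site in the annotated 3' UTR.

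Across all tested genes with a 3' UTR, genes with an 8mer site were set beside those without a site. With venetoclax in wild-type clones the median change was -0.10 over 542 genes with an 8mer and -0.01 over 9876 genes with neither site, and 20.8% and 16.9% were called lower. Called higher were 76 of the 542 and 1893 of the 9876. In A428D clones the share called lower was 11.6% and 9.25%. For the 1395 genes with a 7mer or an 8mer the median in wild-type clones was -0.06, with 21.4% lower and 14.9% higher, and in A428D clones 9.03% were lower, below the 9.25% of genes with neither site. With bexobrutideg in wild-type clones, where the host transcript fell most, 0.185% of genes with an 8mer (1 of 542) and 0.8% of those without a site were called higher. Called lower were 2.21% and 2.1%. Of genes with a 7mer or an 8mer 0.502% were higher and 2.15% lower. With zelebrudomide 2.4% of genes with an 8mer and 3.27% without a site were higher, and 4.61% and 4.24% lower. With pomalidomide 5.72% and 6.29% were higher, and 6.46% and 4.99% lower. These shares are descriptions: genes with a site also differ in other ways, such as the length of the 3' UTR, whose part was not tested.

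Of 26 listed host genes of other miRNAs 20 were tested. With venetoclax in wild-type clones 9 were called lower and 1 higher (median -0.36), against 17.4% and 15.4% of all genes, led by MIR210HG (-2.42 ± 0.42), MIR22HG (-2.07 ± 0.36) and MIR34AHG (-1.28 ± 0.27), with MIR193BHG at -0.87 ± 0.21. MIR17HG, host of an oncogenic miRNA cluster, was the 1 member that rose (0.69 ± 0.16). MIR210HG went from 5.98 to 10.9 CPM under DMSO to 0.798 to 1.83 CPM. In A428D clones 3 fell and 0 rose, MIR210HG (-1.52 ± 0.32), MIR34AHG (-0.68 ± 0.22) and MIR4435-2HG (-0.26 ± 0.09), and 7 fell and 1 rose with the block. Without the block the share of all genes there was 8.79% lower and 8.05% higher, and with it more were called. With zelebrudomide MIR222HG fell (-1.16 ± 0.36) and VMP1 rose (0.52 ± 0.12). With bexobrutideg MIR3142HG, the host of miR-146a, which NF-kB also induces, was the 1 member called (-0.87 ± 0.21, adjusted p = 0.00632). With pomalidomide VMP1 (0.40 ± 0.12) and MIR4435-2HG (0.34 ± 0.10) rose.

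Of genes of miRNA processing all 18 were tested. With venetoclax in wild-type clones 4 rose and 4 fell, against 15.4% and 17.4% of all genes. DGCR8 (0.67 ± 0.14), XPO5 (0.57 ± 0.10), RAN (0.57 ± 0.10) and KHSRP (0.32 ± 0.12) rose. TNRC6B, a partner of AGO proteins in silencing, fell by 0.91 ± 0.11 on the log2 scale. TNRC6C (-0.43 ± 0.14), AGO3 (-0.43 ± 0.15) and DDX17 (-0.42 ± 0.09) were also called lower. DROSHA, which cuts the hairpin with DGCR8, was not called (0.11 ± 0.10, adjusted p = 0.41). In A428D clones DGCR8, XPO5 and RAN rose (0.63 ± 0.13, 0.51 ± 0.09 and 0.34 ± 0.09) and TNRC6B fell by 0.62 ± 0.10. There 8.05% and 8.79% of all genes were called higher and lower. With zelebrudomide AGO2 was the 1 member called (-0.41 ± 0.12) and with pomalidomide TNRC6B (-0.35 ± 0.11). With bexobrutideg edgeR called 0 of 18, and 1 higher and 2 lower with the block, where more of all genes were called too.

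The genes whose level was most like MIR155HG were ranked by Pearson's r of mean log2(CPM + 0.5) over the 16 groups, among 7484 genes with a mean of at least 10 CPM. The groups share clones and reference conditions, so r describes these groups only. SLC38A5, an amino acid transporter, had r = 0.95 (0.76 over the 88 libraries), followed by TM2D3 (0.95), TYW3 (0.95), HSPA9 (0.94), a mitochondrial chaperone, and EIF2S2 (0.94), a translation initiation factor. ZBTB32 (0.93), a zinc finger repressor of activated lymphocytes, EXOSC6 (0.93), ATP1B3 (0.93), HNRNPLL (0.93) and AMD1 (0.93) complete the 10. SLC38A5 had means of 25.2 CPM under DMSO, 16.4 with zelebrudomide and 58.2 with venetoclax in wild-type clones, and ZBTB32 18.3, 9.83 and 29.7.
The 5 most opposite genes were TRANK1 (-0.93), MORC3 (-0.92), TECPR1 (-0.91), HHEX (-0.91), a homeobox factor, and DCLRE1C (-0.90). TRANK1 had 22.9 CPM under DMSO, 33.7 with bexobrutideg and 9.77 with venetoclax in wild-type clones. A high r was not rare: 279 genes (3.73%) had r above 0.8. By Spearman's rho 4 of the 10 and 1 of the 5 stayed in those places, and by r over the 88 libraries 7 and 1. The listed regulators with a mean of at least 10 CPM spread widely: BATF had r = 0.87, JUNB 0.83, NFKB2 0.76, IRF4 0.76, RELB 0.61, NFKB1 0.56, REL 0.48, STAT3 0.23, JUN 0.16, RELA 0.10 and JUND -0.435.

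**Figure D5:**
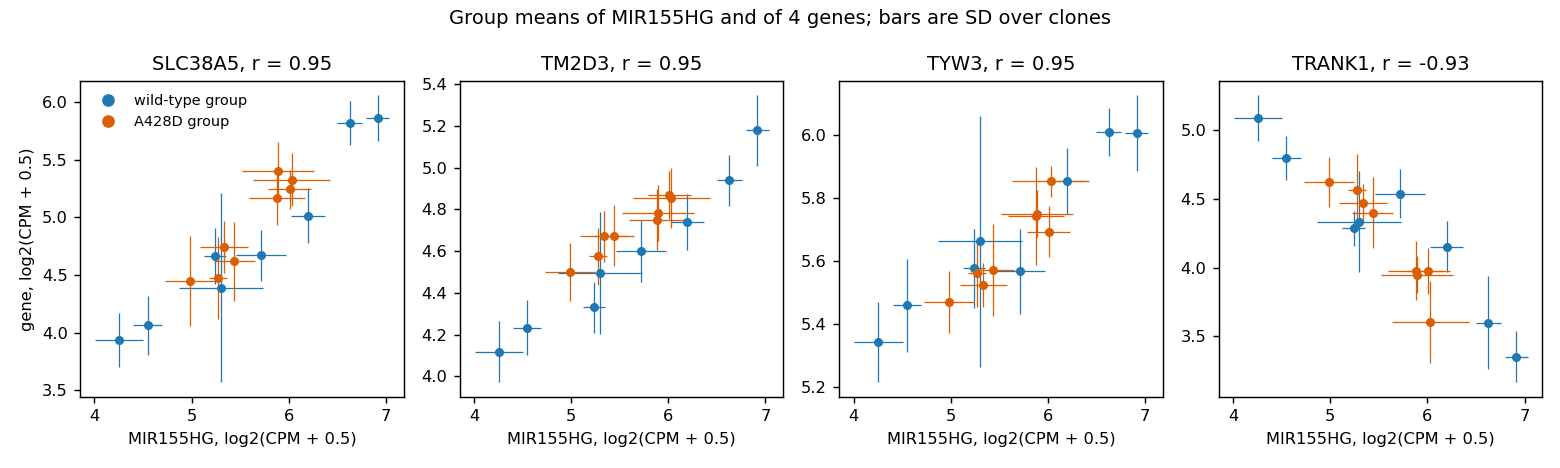
Group means of log2(CPM + 0.5) over clones for MIR155HG (x axis) and for SLC38A5, TM2D3, TYW3 and TRANK1 (y axes), with SD bars, in the 16 groups of the 24 h set. The first 3 rise with MIR155HG (r = 0.95 each) and TRANK1 falls (r = -0.93).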

How the data were processed

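RNA from 100 TMD8 cultures was measured by 3' end sequencing. The deposited values are estimated counts per gene made by the authors (8.76% of values are not whole). FastQC, fastp, STAR, SAMtools, MultiQC, featureCounts from Subread and edgeR are named, with GRCh38, per the submitters' processing notes. The annotation release and strand setting are not given in the sources used here. Counts were rounded, which changed the total by -0.00678%, and 92 spike-in entries were left out.

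Tests used edgeR 4.0.16 in R 4.3.3 (quasi-likelihood, TMM, filterByExpr with a minimum count of 10 and a total of 15, Benjamini-Hochberg adjusted p under 0.05). Treatment comparisons came from 1 fit of 88 libraries in 16 groups (14962 genes), genotype comparisons from fits of their own 11 libraries, and untreated against DMSO from 22 libraries (15354 genes). The fits were tested on simulated data. Alternatives were clone as a block, DESeq2 1.42.0 and its size factors, library totals, no filter, other sets of libraries, MIR155 reads added, the shallowest library left out, and each clone left out. Library totals, the added MIR155 reads and, for the genotype comparison only, leaving out the shallowest library were chosen after seeing the data. Clone numbers pair libraries because the labels name the same clone, and the deviations of libraries of 1 clone had a median r of 0.718, against -0.173 between clones (500 genes). The gene and the lists were chosen with earlier results of these data known. The rule for named genes took MIR155HG, the 10 most like and 5 most opposite genes, and up to 4 called members of each list with the largest change. Other list members in the text were chosen after their values were seen. Some list members are not reported here.

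Depth was 1476876 to 12502216 reads, and intervals on reads cover counting error only. Figures were drawn with matplotlib 3.10.9.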

Additional observations from a re-analysis of the deposited data

Results flagged for a closer look

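In wild-type clones given bexobrutideg with venetoclax, 1 library stood far from the other 4: clone 3 had 65.1 CPM of MIR155HG against 29.6 to 38.1 CPM, a gap of 0.761 of the group's range. It was 1 of 18 groups tested with a library apart, and chance gives about 1 in 20. The library was also the shallowest of the set, with 135 MIR155HG reads, and in it BATF was at 36.7 CPM against 85.6 to 99.7 CPM and RELB at 4.82 CPM against 23.5 to 30.5 CPM. Their part in the high value was not tested.

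The response of MIR155HG differed between A428D and wild-type clones, by the test of the difference itself in edgeR, for zelebrudomide (1.36 on the log2 scale), bexobrutideg (1.20), zelebrudomide on venetoclax (1.71) and bexobrutideg on venetoclax (1.46).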

How the results depend on the processing

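Of 51 comparisons of MIR155HG, 28 were called. With clone as a block 40 kept direction and side of the threshold and 2 became called, both in A428D clones: zelebrudomide against bexobrutideg (0.45, also 0.46 with no filter) and bexobrutideg against pomalidomide (-0.35). No paired analysis was possible for the genotype comparisons because each clone has 1 genotype. Pomalidomide against DMSO in wild-type clones was lost on library totals (0.44) and ranged from 0.38 to 0.57 over left-out clones. Venetoclax added to pomalidomide was lost with DESeq2 (0.40), its size factors (0.40) and totals (0.45), and ranged from 0.35 to 0.48. Pomalidomide added to venetoclax was called in a fit of those groups only (-0.27). A428D against wild-type with bexobrutideg and venetoclax was called in the fit of all 88 libraries (0.56) and without the shallowest library (0.78), with a range of 0.41 to 0.78. With pomalidomide and venetoclax it ranged from -0.82 to -0.63, and untreated from -0.67 to -0.44, called with DESeq2 (-0.53). Zelebrudomide against bexobrutideg on venetoclax in wild-type clones ranged from -0.15 to 0.14, turning sign without clone 3 or the shallowest library (0.14). Zelebrudomide added to venetoclax in A428D clones ranged from -0.020 to 0.093, turning sign without clone 3. Untreated against DMSO was called on totals in wild-type (0.40) and A428D clones (0.43), and its difference turned sign there (0.032) and ranged from -0.18 to 0.030 over left-out clones. The cause of these changes was not tested. The number of all genes called moved by over 1.5 times more often than the calls of MIR155HG did: upward in 37 of 42 comparisons with clone as a block, in 18 of 51 with no filter and in 4 of 51 with DESeq2, and in 9 of 39 upward and 13 downward in fits of only the groups compared. With the block it went in wild-type clones from 983 to 2421 for zelebrudomide, 366 to 1582 for bexobrutideg and 1495 to 2879 for pomalidomide against DMSO, and in A428D clones from 308 to 1007, 0 to 2 and 1298 to 2493, and from 2519 to 4595 for venetoclax. For the responses it went up to 1011 for zelebrudomide, from 92 to 753 for bexobrutideg, 0 to 7 for pomalidomide and 0 to 26 for venetoclax, and on venetoclax from 930 to 2725, 502 to 1625 and 0 to 5. Without the shallowest library A428D against wild-type with bexobrutideg and venetoclax went from 243 to 1048, and to 622 with DESeq2, 156 on totals and 2031 in the fit of 88 libraries.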
